A study of Mus musculus with 7 samples.

Results

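Tryptophan that is not built into protein is broken down in the liver through kynurenine, and part of that flow ends in the synthesis of NAD, the electron carrier and substrate of sirtuins and poly(ADP-ribose) polymerases. Hepatocytes also rebuild NAD from nicotinamide by a salvage route. A list of 10 genes of these routes was examined in the read-count table of primary hepatocytes, by matching gene symbols. Of the 10, 9 were among the 14819 rows of the table, and all 9 passed the filter on expression: *Tdo2*, *Ido2*, *Afmid*, *Kmo*, *Kynu*, *Acmsd*, *Qprt*, *Nampt* and *Nnmt*. *Haao*, which encodes hydroxyanthranilate dioxygenase, was not analysed here. The members were selected on function and on their values in the same comparison of WDR6-WKO with WT libraries, so each member's fold change and adjusted p below describe where it stood in the fit over all genes and are not independent evidence.

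The cells were primary hepatocytes, labelled as untreated, from the liver of 4 WT mice and 3 mice with whole-body *Wdr6* knockout (WDR6-WKO), a line made by CRISPR–Cas9 deletion of exon 2. The hepatocytes came from male mice by collagenase perfusion and were kept overnight in William's E medium with fetal bovine serum. The study's methods name C57BL/6J mice of a fixed age as its default and do not state strain or age for these donors separately, and *Wdr6* was missing from every organ of the WDR6-WKO mice, not from hepatocytes alone. *Wdr6* fell to 5.39% of its WT level (quasi-likelihood test of edgeR, adjusted p = 3.44e-12 by the Benjamini-Hochberg method, as for every adjusted p here), and the libraries held 17816913 to 23668940 counted reads. All 8 hepatocyte markers examined were present, from *Alb* at 7366 CPM in WT down to *Asgr1* at 13.8 CPM. Markers of other liver cells were also counted, and they are given with the results below. Levels are counts per 1000000 counted reads (CPM) after TMM scaling, ± is the s.d. over libraries unless marked s.e. for standard error, and values of single libraries follow the order of replicate numbers.

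In hepatocytes TDO2 and IDO2 open the indole ring of tryptophan, and AFMID releases kynurenine from the product. KMO, KYNU and HAAO carry kynurenine towards an unstable intermediate that stands at a fork. ACMSD removes it towards complete oxidation. What ACMSD leaves turns by itself into quinolinate, which QPRT joins to a ribose phosphate on the way to NAD. NAMPT performs the limiting step of the salvage of nicotinamide, and NNMT methylates nicotinamide and so withdraws it from that salvage.

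Promoter sequences of RefSeq (GRCm38.p6) were examined for 5 of the 9 members in the table, and 2 are shown because they belong to a member that was lower, *Tdo2*, and to *Nampt*, which was higher. Each is the stretch of 250 bases that ends just before the transcription start that RefSeq gives, written 5′ to 3′ on the strand of the gene, with CpG dinucleotides in capitals. They lie at chr3:81975729-81975978 (minus strand) and chr12:32820085-32820334 (plus strand), inside the spans that GENCODE gives these genes, since its outermost starts lie further upstream than those of RefSeq.
*Tdo2*: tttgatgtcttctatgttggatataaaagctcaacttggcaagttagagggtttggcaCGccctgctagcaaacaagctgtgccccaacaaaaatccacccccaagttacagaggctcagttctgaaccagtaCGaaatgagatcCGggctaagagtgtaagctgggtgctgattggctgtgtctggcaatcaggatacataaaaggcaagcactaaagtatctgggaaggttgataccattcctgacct
*Nampt*: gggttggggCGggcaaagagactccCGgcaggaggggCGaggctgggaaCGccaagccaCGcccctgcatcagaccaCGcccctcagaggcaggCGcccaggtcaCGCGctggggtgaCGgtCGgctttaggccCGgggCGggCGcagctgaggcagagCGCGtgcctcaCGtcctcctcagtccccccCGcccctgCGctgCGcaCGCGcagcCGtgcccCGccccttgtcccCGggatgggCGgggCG
The promoter of *Tdo2* held 3 CpG dinucleotides, with a GC content of 46.4%. That of *Nampt* held 27, with a GC content of 75.6%, where the median over all 32851 promoters was 6 CpG dinucleotides and 52.4%. *Qprt*, *Kmo* and *Afmid* held 6, 5 and 15 CpG dinucleotides. Both strands of these windows were searched for the ATF4 element (TGATGNAA), the E-box bound by USF factors (CACGTG), the interferon-stimulated response element, a glucocorticoid receptor site (AGAACA) and the core bound by the aryl hydrocarbon receptor (GCGTG). Only the last was found among the 5 promoters, 5 times in *Nampt* and once in *Tdo2*. These letters occur in 28.2% of all promoters of the same length, against 3.45% for the ATF4 element, 6.02% for the E-box, 2.98% for the interferon element and 16.1% for the glucocorticoid receptor site.

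Of the 9 members, 4 were called lower and 2 higher in WDR6-WKO hepatocytes at an adjusted p under 0.05, and 3 were not called. Over all 14779 genes tested the same threshold called 12.8%, with 6.18% lower and 6.65% higher. The ranges of both groups lay apart for the same 6 members, as they did for 23.5% of all genes. The median log2 fold change was -0.11 over the members and 0.01 over all genes. Scaling by library size alone turned the split over all genes from 983 higher and 914 lower to 1212 higher and 696 lower, while it still called 2 members higher and 4 lower. WDR6-WKO replicate 3 stood apart from the other WDR6-WKO libraries, with a chi-square per gene of 14.3 and 15.9 against 5.14 between those. Without it 2150 genes were called higher and 2083 lower, with 2 members higher and 4 lower as before. Without any 1 of the other libraries, between 570 and 740 genes were called higher and between 462 and 661 lower, the fewest without WDR6-WKO replicate 2.

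**Figure D1:**
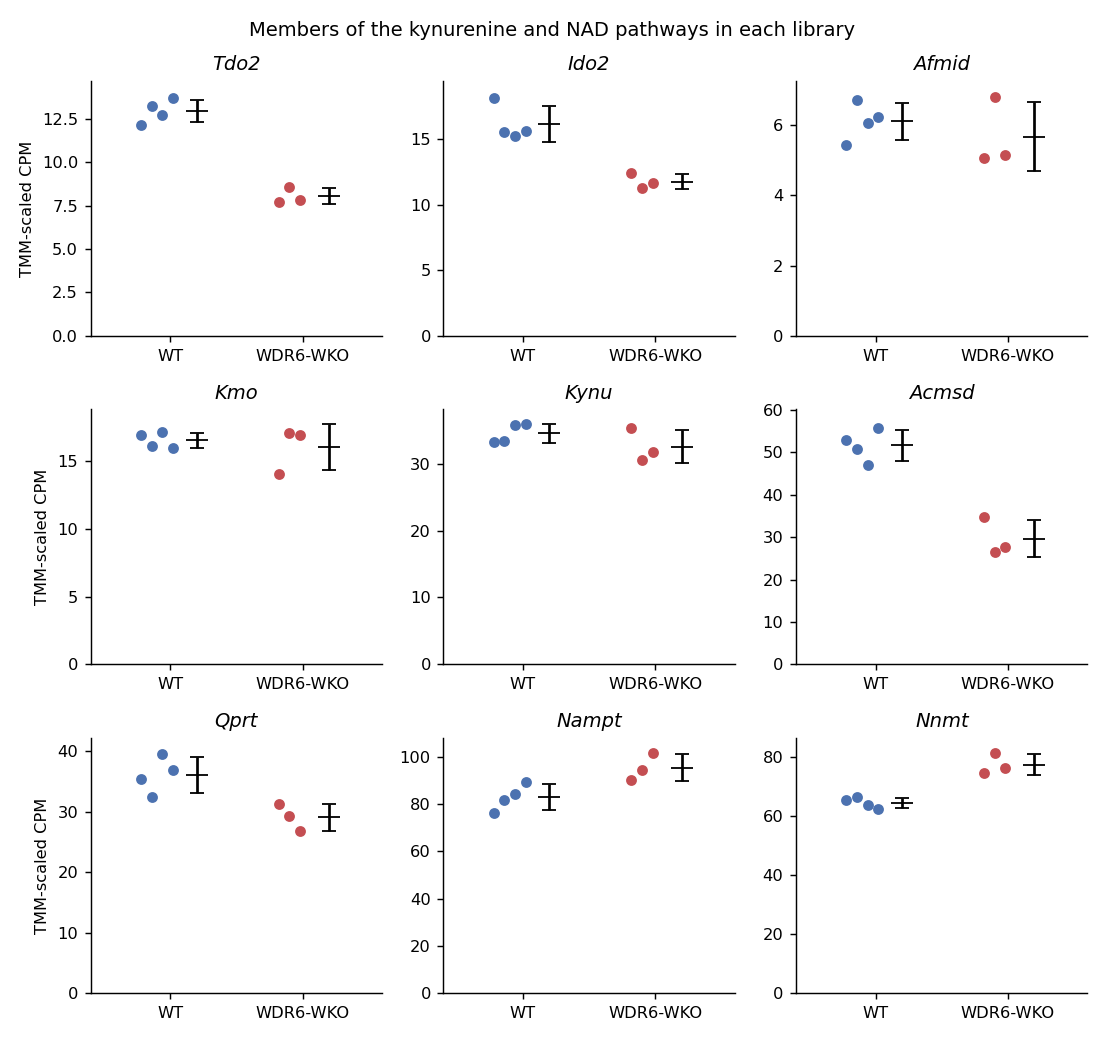
TMM-scaled CPM (y axis, from 0) of the 9 members in each of 4 WT and 3 WDR6-WKO libraries, with 1 point per library in order of replicate number and the mean ± s.d. beside the points. The groups lie apart for *Tdo2*, *Ido2*, *Acmsd*, *Qprt*, *Nampt* and *Nnmt*, and they overlap for *Afmid*, *Kmo* and *Kynu*.

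Both dioxygenases that open the pathway were lower in WDR6-WKO hepatocytes. *Tdo2*, on chromosome 3 of GRCm38 from 81957090 to 81976202, stood at 12.2, 13.2, 12.7 and 13.7 CPM in the 4 WT libraries and at 7.73, 8.55 and 7.82 CPM in the 3 WDR6-WKO libraries. Every WDR6-WKO library lay below every WT library. The mean fell from 12.9 ± 0.647 (n = 4) to 8.03 ± 0.452 CPM (n = 3), or to 62.1% of WT, a log2 fold change of -0.69 ± 0.10 (s.e.; edgeR adjusted p = 0.000310). These values rest on raw counts of 140 to 272 per library.

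*Ido2*, which encodes a dioxygenase with a weaker activity on tryptophan, lies on chromosome 8 from 24531892 to 24576333. It stood at 18.2, 15.6, 15.3 and 15.6 CPM in the 4 WT libraries and at 12.4, 11.2 and 11.7 CPM in the 3 WDR6-WKO libraries. The groups did not overlap, and WT replicate 1 was the highest library. The log2 fold change of *Ido2* was -0.46 ± 0.10 (s.e.; edgeR adjusted p = 0.00518). Without WT replicate 1 it was -0.39, and the call held. The ratio of *Tdo2* to *Ido2* counts overlapped between the groups, with 0.669 to 0.875 in WT and 0.624 to 0.761 in WDR6-WKO libraries.

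*Afmid*, *Kmo* and *Kynu*, the steps between the dioxygenases and the fork, were not called. *Afmid*, the formamidase gene on chromosome 11 from 117825924 to 117839908, ranged between 5.45 and 6.70 CPM in WT libraries and between 5.07 and 6.80 CPM in WDR6-WKO libraries. Its log2 fold change of -0.11 had a 95% interval of -0.41 to 0.20. *Afmid* shares 64.0% of the 50-base sequences of its longest transcript with *Tk1* and the readthrough gene *Gm20708*, whose exons overlap it, so part of its reads may belong to them. *Kmo*, the monooxygenase gene on chromosome 1 from 175620381 to 175662116, ranged between 16.0 and 17.1 CPM in WT libraries, and 1 WDR6-WKO library lay below that range while 2 lay at 16.9 and 17.1 CPM. The interval of its log2 fold change ran from -0.25 to 0.15. *Kynu*, which encodes kynureninase and lies on chromosome 2 from 43555329 to 43682715, stood at 34.5 ± 1.45 CPM in WT (n = 4) and 32.5 ± 2.45 in WDR6-WKO (n = 3), with an interval of -0.24 to 0.07. Changes within those intervals were not excluded with 4 and 3 libraries.

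*Acmsd* had the largest change of the 9 members. This gene of the decarboxylase at the fork, on chromosome 1 from 127729413 to 127767978, stood at 53.0, 50.7, 47.1 and 55.7 CPM in the 4 WT libraries and at 34.7, 26.6 and 27.8 CPM in the 3 WDR6-WKO libraries. All WDR6-WKO libraries lay below the lowest WT library. Its mean fell from 51.6 ± 3.66 (n = 4) to 29.7 ± 4.36 CPM (n = 3), or to 57.5% of WT, a log2 fold change of -0.80 ± 0.09 (s.e.; edgeR adjusted p = 3.10e-05). Over all alternative fits it lay between -0.93 and -0.72.

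*Qprt*, which takes the other branch of the fork, was lower by a smaller amount. On chromosome 7 from 127107114 to 127122226, it stood at 35.4, 32.4, 39.6 and 36.9 CPM in the 4 WT libraries and at 31.2, 29.3 and 26.8 CPM in the 3 WDR6-WKO libraries. The highest WDR6-WKO library and the lowest WT library were close, at 31.2 and 32.4 CPM. The log2 fold change of *Qprt* was -0.31 ± 0.08 (s.e.; edgeR adjusted p = 0.0205). The call was lost without WT replicate 3, WT replicate 4 or WDR6-WKO replicate 2, with adjusted p of 0.0805, 0.0664 and 0.0645 in the same edgeR test. *Qprt* also fell short of the study's threshold for the absolute log2 fold change, 0.35.

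The balance at the fork was read as the ratio of *Acmsd* to *Qprt* counts within each library, which no scaling factor touches. It lay between 1.19 and 1.57 in the 4 WT libraries and was 1.11, 0.908 and 1.04 in the 3 WDR6-WKO libraries. All WDR6-WKO ratios lay below the lowest WT ratio, and the WT mean was 1.44 ± 0.171 (n = 4). The ratio of *Nampt* to *Qprt* counts, of salvage to synthesis from tryptophan, moved the other way, with 2.13 to 2.53 in the WT libraries and 2.89 to 3.80 in those of WDR6-WKO. These are ratios of read counts, which also depend on transcript length, and do not measure the flow of metabolites. They are built from members selected on their values in this comparison, so they restate the members' changes and are not independent evidence.

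**Figure D2:**
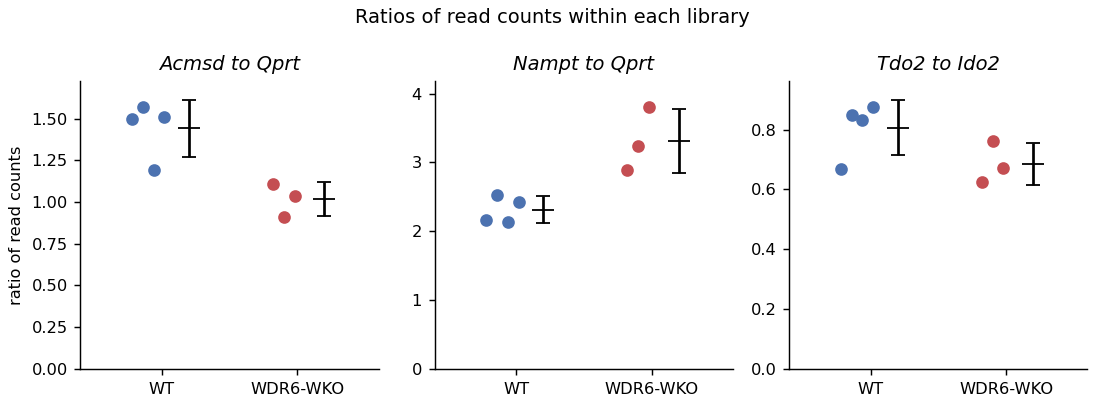
Ratios of read counts (y axes, from 0) of *Acmsd* to *Qprt*, *Nampt* to *Qprt* and *Tdo2* to *Ido2* within each of 4 WT and 3 WDR6-WKO libraries, with the mean ± s.d. beside the points. The ratios of *Acmsd* to *Qprt* lie at 1.19 and above in WT and at 1.11 and below in WDR6-WKO, while those of *Tdo2* to *Ido2* overlap.

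The genes of nicotinamide salvage and methylation were higher. *Nampt*, on chromosome 12 from 32819545 to 32853349, stood at 76.3, 81.9, 84.3 and 89.5 CPM in the 4 WT libraries and at 90.3, 94.7 and 101.7 CPM in the 3 WDR6-WKO libraries. The groups were separated by less than 1 CPM, between WT replicate 4 and WDR6-WKO replicate 1. The log2 fold change of *Nampt* was 0.20 ± 0.06 (s.e.; edgeR adjusted p = 0.0455), close to the threshold. It stayed positive under every alternative tried, between 0.15 and 0.24. The call was lost with median-of-ratios size factors, with limma-voom and without any of WT replicates 1 to 3 or WDR6-WKO replicates 1 and 2, and adjusted p ranged from 0.0105 to 0.128 over all alternatives.

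*Nnmt*, on chromosome 9 from 48591877 to 48605153, stood at 65.3, 66.3, 63.8 and 62.3 CPM in the 4 WT libraries and at 74.5, 81.4 and 76.3 CPM in the 3 WDR6-WKO libraries. The WT libraries lay within a narrow band, and every WDR6-WKO library was above it. The log2 fold change of *Nnmt* was 0.27 ± 0.06 (s.e.; edgeR adjusted p = 0.00498), from 64.4 ± 1.77 (n = 4) to 77.4 ± 3.55 CPM (n = 3).

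To compare members with each other, counts were divided by the length of the longest transcript and each library scaled to the same total (the TPM scale). By that level *Nnmt* led in WT hepatocytes with 143 ± 4.34 TPM (n = 4), above 93.5% of the genes with a known length. *Acmsd* at 44.0 ± 4.00, *Nampt* at 42.5 ± 4.21 and *Qprt* at 40.7 ± 3.70 TPM followed, and neighbours among these 3 overlapped in their WT ranges. *Kynu* came next at 28.7 ± 1.99 TPM. *Ido2*, *Kmo*, *Tdo2* and *Afmid* had lower levels, with 11.6 ± 0.683, 10.4 ± 0.237, 8.72 ± 0.740 and 6.08 ± 0.676 TPM, and with these lengths their WT ranges did not overlap in that order. With the union of exons as length the WT mean of *Kynu* was 16.3 TPM, and those of *Kmo* and *Tdo2* came closer to each other, at 10.1 and 9.66 TPM. By both lengths *Tdo2*, usually regarded as the main dioxygenase of liver, was below *Ido2* in these cultured cells. With the longest transcript it stood above 38.2% of the genes with a known length. The order depends on the annotated lengths. Which transcripts were expressed, and how many reads across exon junctions were lost, was not examined. In WDR6-WKO hepatocytes *Acmsd* stood at 26.2 ± 4.52 TPM (n = 3), and *Nampt* at 50.6 ± 2.97 stood above it and above *Qprt*.

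**Figure D3:**
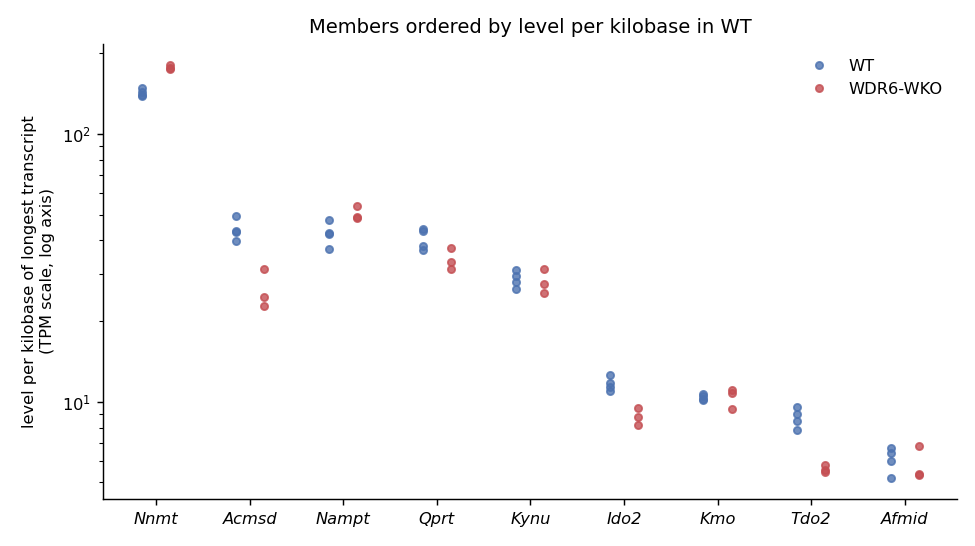
Level of each member per kilobase of its longest transcript on the TPM scale (log y axis), with 1 point for each of 4 WT and 3 WDR6-WKO libraries, ordered by the WT mean. *Nnmt* lies highest, and *Acmsd*, *Nampt* and *Qprt* lie close together in WT, with means of 44.0, 42.5 and 40.7 TPM.

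Transcripts of other liver cells were measured in these cultures too, and macrophages are known to express *Kmo*, *Kynu* and *Nampt*. Of 8 hepatocyte markers 5 were called lower and 0 higher, where 6.18% of all genes tested were called lower and 6.65% higher. Their median log2 fold change was -0.30, and they summed to 10441 to 12404 CPM in WT and 9286 to 9921 CPM in WDR6-WKO libraries. *Hnf4a*, a transcription factor of hepatocyte identity, had a log2 fold change of -0.27. Of 10 Kupffer cell and macrophage markers 2, *C1qb* and *C1qc*, were called higher and 0 lower, with a median of 0.23. A log2 fold change above 0 was found for 9 of them, while *Timd4* had -0.48 and was not called. Their summed level was 603 to 671 CPM in WT, and 793, 846 and 696 CPM in WDR6-WKO replicates 1, 2 and 3. *Clec4f*, which defines Kupffer cells, was present at 117 CPM in WT and 126 CPM in WDR6-WKO and was not called. Of 5 cholangiocyte markers 2, *Spp1* and *Sox9*, were called higher and 0 lower. The 5 summed to 3068 to 3360 CPM in WT and 3714 to 4306 CPM in WDR6-WKO, most of it *Spp1*. *Krt19*, *Krt7* and *Epcam* had log2 fold changes of -0.05, -0.10 and 0.34 and were not called. None of 6 sinusoidal endothelial markers and 1 of 6 stellate markers, *Dcn*, was called, and of 5 lymphocyte markers only *Ptprc* was in the table. In these bulk samples fewer hepatocytes and less of a transcript per hepatocyte cannot be told apart, and the part of these markers' differences in the members' values was not tested.

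Around the members, 89 further genes were listed by function, and 76 of them were tested. The lists cover the same routes, NAD consumers, nicotinamide clearance, tryptophan transport, and the aryl hydrocarbon and glucocorticoid receptors with their targets. Of the 76 genes, 12 were called lower and 10 higher, with a median log2 fold change of 0.03. Over all genes tested, 6.18% were called lower and 6.65% higher. Among 11 tested genes of other steps of tryptophan catabolism, 2 were lower and 1 was higher. *Kyat3*, an aminotransferase that turns kynurenine into kynurenic acid, fell from 52.9 ± 0.977 (n = 4) to 40.8 ± 3.44 CPM (n = 3), with a log2 fold change of -0.37 (adjusted p = 0.00136 in the edgeR test). *Ddc*, the aromatic amino acid decarboxylase, fell by 0.36 on the log2 scale and *Maoa*, which degrades serotonin, rose by 0.35. *Kyat1* and *Aadat*, aminotransferases of the same reaction, had log2 fold changes of 0.12 and -0.20 and were not called. *Ido1*, the dioxygenase induced by interferon, was nearly silent in both groups, at 1.31 ± 0.261 CPM in WT (n = 4) and 1.68 ± 0.271 in WDR6-WKO (n = 3), and was not called. *Aldh8a1*, which acts after ACMSD, stood at 2.67 ± 0.390 and 2.05 ± 0.205 CPM, with a log2 fold change of -0.39 and an interval of -0.81 to 0.03.

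Of 11 tested genes of other steps of NAD synthesis and related reactions, 2 were lower and 0 higher. Over all genes tested, 12.8% were called. *Nadsyn1*, the synthetase shared by the routes from tryptophan and nicotinic acid, *Naprt*, which starts the route from nicotinic acid, and *Nmrk1*, the nicotinamide riboside kinase, had log2 fold changes of -0.07, -0.17 and -0.14. *Nmnat1* and *Nmnat3*, which encode the enzymes of the last shared step in nucleus and mitochondria, had log2 fold changes of 0.33 and 0.25, with adjusted p of 0.0996 and 0.236 in the edgeR test. The genes called were *Nt5e*, the ectonucleotidase that can process extracellular nucleotides, with -0.34, and *Nadk2*, the mitochondrial NAD kinase, with -0.29. The cytosolic kinase gene *Nadk* stood at 510 ± 7.15 CPM in WT (n = 4) and 532 ± 11.5 in WDR6-WKO (n = 3) and was not called.

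Of 21 genes of enzymes that consume NAD, 4 were higher and 2 were lower, against 6.65% and 6.18% of all genes. The calls in both directions were of ADP-ribosyltransferase genes, of which *Parp9*, *Parp12* and *Parp14* are known to be induced by interferon. *Parp12* rose from 63.3 ± 3.75 (n = 4) to 90.9 ± 2.32 CPM (n = 3), a log2 fold change of 0.52, and *Parp14*, *Parp9* and *Tiparp* rose by 0.48, 0.37 and 0.34. None of the 7 sirtuin genes was called. Both lower calls, *Parp4* and *Tnks2*, chosen here after their values were seen, were lost without any 1 of 5 libraries, which were WT replicates 2, 3 and 4 and WDR6-WKO replicates 1 and 2.

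Of 6 tested genes of nicotinamide and methyl clearance, which include the methyl cycle, 2 were lower and 0 higher. Among all genes tested, 6.18% were called lower and 6.65% higher. *Aox1*, an aldehyde oxidase that makes pyridones from methylated nicotinamide, fell from 74.2 ± 3.34 (n = 4) to 59.0 ± 6.29 CPM (n = 3), with a log2 fold change of -0.33 (adjusted p = 0.00579 in the edgeR test), while *Nnmt* was higher. *Cyp2e1*, a cytochrome gene of the same list that also stands among the hepatocyte markers called lower, fell by 0.34 on the log2 scale. The list held 1 lower call in place of 2 without WT replicate 2, WT replicate 3, WDR6-WKO replicate 1 or WDR6-WKO replicate 2. *Aox3* was near 2 CPM in both groups and was not called.

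Of 9 tested genes of tryptophan transport and its charging onto tRNA, 3 were higher and 0 lower, against 6.65% and 6.18% of all genes. *Slc7a5* and *Slc3a2* encode the partners of a transporter of large neutral amino acids that carries tryptophan. *Slc7a5* stood at 68.7 to 77.6 CPM in WT and at 107 to 124 CPM in WDR6-WKO libraries, with a log2 fold change of 0.70 (adjusted p = 3.25e-06 in the edgeR test). *Slc3a2* stood at 134 to 142 and at 200 to 251 CPM, with 0.71. *Wars*, the cytosolic tryptophanyl-tRNA synthetase, rose by 0.23 on the log2 scale.

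Kynurenine and some of its products are ligands of the aryl hydrocarbon receptor. Of 7 tested genes of this receptor and its targets, 3 were lower and 1 was higher, against 6.18% and 6.65% of all genes. The receptor gene *Ahr* fell from 228 ± 5.81 (n = 4) to 160 ± 15.1 CPM (n = 3), or to 70.1% of WT (adjusted p = 3.34e-05 in the edgeR test), and its partner *Arnt* fell by 0.23 on the log2 scale. *Cyp1a2*, a target expressed in liver without added ligand, fell by 0.45, and *Tiparp*, a target that also stands among the NAD consumers, rose by 0.34. The targets not called, *Nqo1*, *Cyp1a1* and *Cyp1b1*, had log2 fold changes of 0.25, 0.77 and -0.71. *Cyp1a1* and *Cyp1b1* were nearly silent, at 0.387 and 0.675 CPM in WT. Without WT replicate 2 or WDR6-WKO replicate 2, the list held 1 lower call in place of 3, and the higher call was lost without WT replicate 4.

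**Figure D4:**
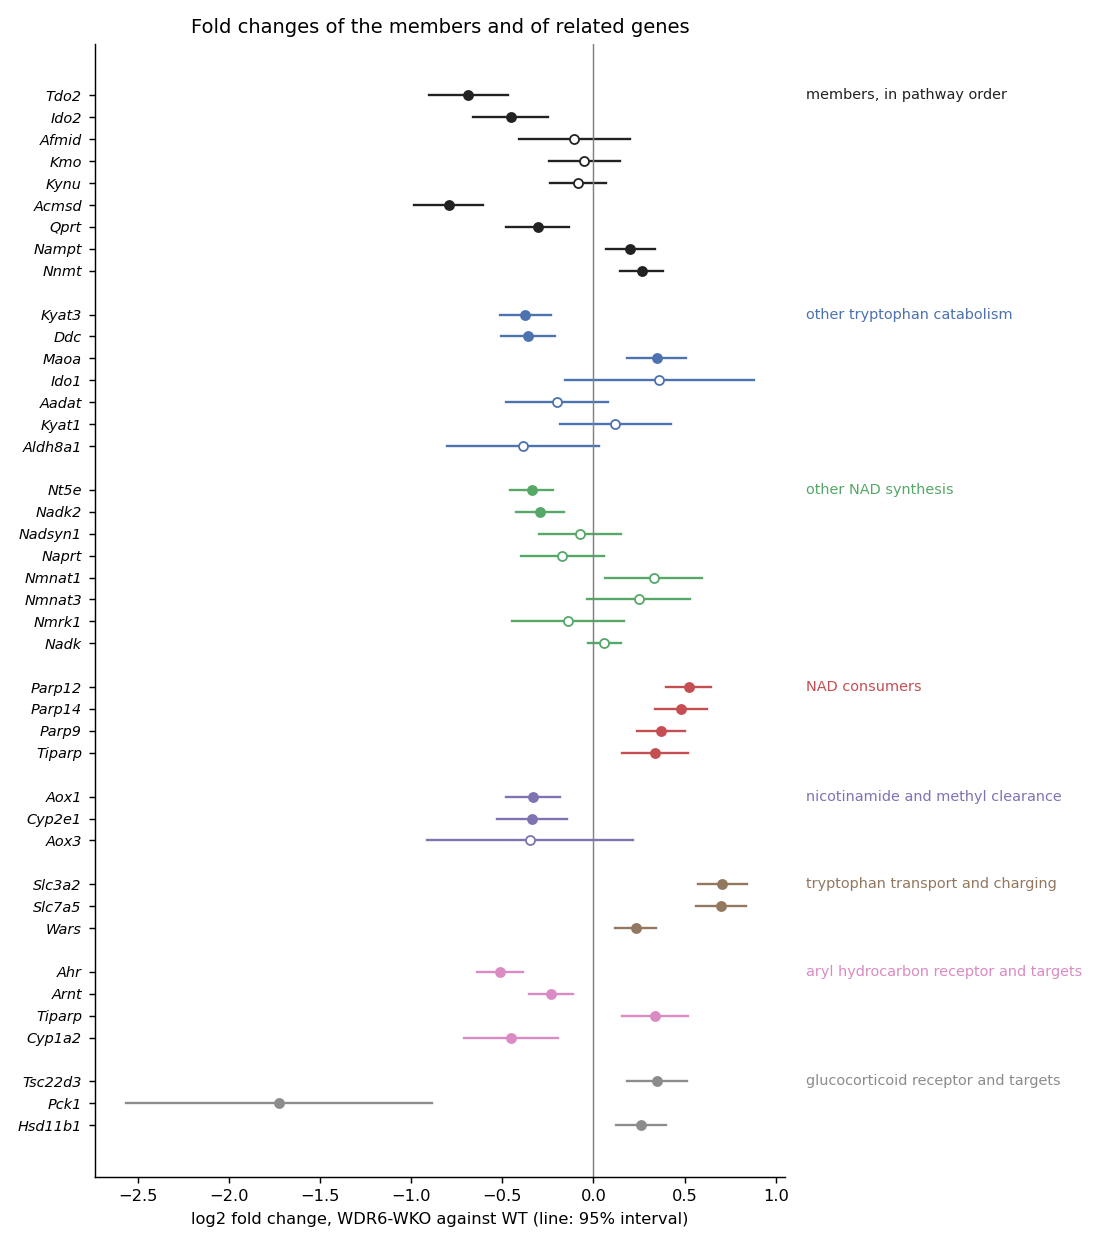
Log2 fold change of WDR6-WKO against WT (x axis; points, with lines for the 95% interval) for the 9 members in pathway order and for related genes by list. Filled points have an adjusted p under 0.05 over all genes tested. *Acmsd* lies lowest among the members at -0.80, and *Slc3a2* and *Slc7a5* lie highest among all genes shown at 0.71 and 0.70.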

How the data were processed

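RNA of 4 WT and 3 WDR6-WKO primary hepatocyte samples was sequenced on an Illumina HiSeq platform from NEBNext Ultra libraries. The authors aligned the reads to mm10 with Bowtie2 2.2.3, per the submitters' processing notes, and deposited raw read counts per gene symbol. The counting tool, annotation and strand setting are not given in the sources used here. No row of the table has a total below 50. Samples were grouped by their labels. Same-numbered samples come from different mice, and their deviations from the group means correlated by 0.0202 to 0.0396, so no block was used. Libraries of 1 group were not duplicates, since their counts differed beyond sampling noise (chi-square per gene 3.80 to 15.9). The study states that its replicates are biological.

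Counts were scaled by TMM, filtered with filterByExpr and tested with the robust quasi-likelihood test of edgeR 4.0.16 in R 4.3.3, with Benjamini-Hochberg adjustment over 14779 genes. A call is an adjusted p under 0.05. The standard error was derived from the fold change and the F statistic. Alternatives were DESeq2 1.42.0, limma-voom (limma 3.58.1), other scalings and filters, a replicate block, each replicate left out, and the study's thresholds for differential expression. Lengths, positions and shared 50-base sequences came from GENCODE M21 (GRCm38), which gave lengths for 14725 rows with 99.6% of counts. Steps were tested on simulated data. The members and lists were chosen with earlier results of these data known. All members were named, with the 4 called genes of smallest p in each list of related genes and a fixed set of further pathway genes. Lymphocyte markers not in the table were not analysed here, and 1 related gene and 1 member's promoter are not reported here. P-values set the difference between the groups against the spread between these samples.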

Additional observations from a re-analysis of the deposited data

Results flagged for a closer look

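In WT replicate 1 *Ido2* stood at 18.15 CPM, while the other 3 WT libraries lay between 15.26 and 15.61 CPM. Its gap to the nearest library made up 0.878 of the range of the group, above Dixon's 95% critical value for 4 samples. It was the only 1 of 46 values tested in this way, and chance alone singles out about 1 in 20 such groups. Without this library the log2 fold change of *Ido2* was -0.39 (adjusted p = 0.0204 in the edgeR test), against -0.46 with it. The 3 WDR6-WKO libraries were too few for the same test.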

How the results depend on the processing

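For *Tdo2*, *Ido2*, *Acmsd*, *Nnmt* and *Wdr6*, direction and call were kept in all 14 other fits. With each library left out in turn, log2 fold changes ranged from -0.37 to -0.25 for *Qprt* and from 0.15 to 0.24 for *Nampt*, with 1 to 2 members called higher and 3 to 4 lower. *Kmo*, never called, ranged from -0.10 to 0.036 and turned positive, at 0.036, without WDR6-WKO replicate 1. *Nampt* was not called with median-of-ratios size factors (0.20, 1 member called higher) or limma-voom (0.20, 1 member called higher). Calls over all genes ranged from 570 to 2150 higher and from 462 to 2083 lower, those among related genes from 8 to 16 higher and from 7 to 15 lower, and those among markers of other cells from 2 to 8 higher; the most came without WDR6-WKO replicate 3. With the study's thresholds 0 members (*Nnmt* and *Nampt* fell short of the fold), 5 related genes and 2 markers of other cells were called higher. By the same thresholds 583 genes, 3 members (*Qprt* fell short of the fold), 6 related genes and 1 such marker were called lower. The cause was not tested. The replicate block, which uses numbers that do not pair the mice, changed no call of a member and gave *Nampt* 0.24, *Qprt* -0.29 and *Acmsd* -0.77. With the union of exons as length, WT levels were 118 TPM for *Nnmt*, 52.8 for *Acmsd*, 47.6 for *Nampt*, 16.3 for *Kynu*, 12.8 for *Ido2*, 10.1 for *Kmo*, 9.66 for *Tdo2* and 5.01 for *Afmid*, in the same order. Of 210 counts for single lists, 28 moved by over 1.5 times. Depth limits *Afmid*, at 92 to 144 counts per library, more than other members.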

Other observations

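*Tdo2* is a known target of the glucocorticoid receptor, and a list of 12 genes of that receptor and its targets was read beside it. Of these, 2 were called higher and 1 lower in WDR6-WKO hepatocytes, with a median log2 fold change of 0.00. Among all genes tested, 6.65% were called higher and 6.18% lower. *Tsc22d3*, a leucine zipper gene induced by glucocorticoids, rose by 0.35 on the log2 scale and *Hsd11b1*, which regenerates active glucocorticoid, rose by 0.26. *Pck1*, the gluconeogenic enzyme gene, was lower by 1.73 on the log2 scale, from 1.47 ± 0.586 CPM in WT (n = 4) to 0.427 ± 0.177 in WDR6-WKO (n = 3), a level close to the lower end of the table. Its call was lost with a filter of at least 10 counts in every library, which removed the gene. The receptor gene *Nr3c1* had a log2 fold change of -0.05 and was not called, and *Tat*, which like *Tdo2* encodes a liver enzyme of amino acid catabolism, had -0.88 without being called.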
